A study of Rattus norvegicus with 12 samples.

Results

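The 10 genes described here are the core of TGF-beta signalling: the ligands Tgfb1, Tgfb2 and Tgfb3, the receptors Tgfbr1, Tgfbr2 and Tgfbr3, and the intracellular mediators Smad2, Smad3, Smad4 and Smad7. They were taken by gene symbol, each had 1 line, and they are 10 of the 22384 lines of the expression table that carry a symbol. The table holds RNA-seq levels in rat hepatic progenitor cells (HPCs), labelled as from gestation day 13.5, in 12 libraries that form 6 groups of 2. The cells are wild type or carry the labels Tnfrsf1α-/- or Tnfrsf1β-/-, either without treatment or exposed for 1 hour to the cytokine TNFα and each named here by its label. The names are taken here to mean loss of Tnfrsf1a and Tnfrsf1b, the genes of the TNF receptors TNFR1 and TNFR2. How the knockouts were made, whether each is 1 clone, the TNFα dose and whether replicates are separate cultures are not stated in the sources used here, so the p-values reflect the spread between libraries, which may be technical. Levels are log2(FPKM + 1), where FPKM counts the fragments of a gene relative to the length of its transcript and to the mapped total of its library, and pairs of values are given in the order replicate 1, replicate 2.

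TGF-beta ligands are secreted in a latent form, held by binding proteins in the matrix and released by integrins or proteases. The released ligand brings together the serine/threonine kinase receptors Tgfbr2 and Tgfbr1, with Tgfbr3 (betaglycan) as a co-receptor that presents Tgfb2 in particular. The activated Tgfbr1 phosphorylates Smad2 and Smad3, which enter the nucleus with Smad4, while the inhibitory Smad7 is induced by the pathway and blocks the receptor. In the liver the pathway is known for growth arrest of hepatocytes, for matrix production by stellate cells and for steering progenitors of the fetal liver towards a biliary fate.

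The targeted genes did not all match the labels. The level of Tnfrsf1a (TNFR1) was 5.94 and 6.13 in untreated libraries labelled Tnfrsf1α-/-, against 5.45 and 5.15 in untreated wild type, so it was not lower under its own label. Tnfrsf1b (TNFR2) was listed at 0 in every untreated wild-type library, so the untreated libraries could not check the other label. With TNFα it stood at 2.58 and 2.43 in wild type, at 0.00 and 4.09 under the Tnfrsf1α-/- label and at 0 in both libraries labelled Tnfrsf1β-/-. These values of 0 cannot check the Tnfrsf1β-/- label, because untreated wild type and 1 treated library labelled Tnfrsf1α-/- were also at 0. Hepatocyte markers summed to 4926 and 5118 FPKM in treated wild type against 8.96 to 26.6 in the other 10 libraries, and the median level of the mesenchymal and stellate markers was 0.28 and 0.85 there against 5.35 to 7.97 elsewhere. In summed FPKM the mesenchymal markers overlapped between groups, at 2236 and 3093 in treated wild type and 2551 to 6763 elsewhere. The 12 progenitor and cholangiocyte markers summed to 373 to 500 FPKM in the 4 untreated knockout libraries, 12010 to 14655 in untreated wild type and treated libraries labelled Tnfrsf1β-/-, and 26269 to 54902 in the other 4, mostly through Krt7. Sox9 followed that order, whereas Epcam, Krt19 and Afp were at or near 0 outside treated wild type and Dlk1 and Prom1 were near 0 everywhere. Spp1 stood at 6.12 in replicate 2 of treated libraries labelled Tnfrsf1α-/- and at or near 0 elsewhere. Of 7 macrophage and leukocyte markers, Adgre1, Tyrobp and C1qa were listed at 0 throughout, Ptprc was at or near 0, and Cd14 ranged from 3.67 to 5.65. Cd68 was 4.09 in replicate 2 of treated libraries labelled Tnfrsf1α-/- and 0.42 to 0.87 elsewhere. The part of these differences in the results for the TGF-beta genes was not tested, and in such bulk libraries fewer cells of a type and less RNA per cell cannot be told apart. The pair of treated libraries labelled Tnfrsf1α-/- differed most, with a Spearman correlation across genes of 0.782 against 0.961 to 0.996 in the other groups. The 4 untreated knockout libraries had summed FPKM values of 447554 to 472935 and the other 8 had values of 1071530 to 2085916, a difference in scale that every comparison between these sets carries.

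The promoters of Tgfb1 and Tgfb2 are shown because these ligands moved in opposite directions in wild-type cells given TNFα. Both windows run from 250 bases before to 50 bases after the start of the gene, 5′ to 3′ on the gene's strand, from RefSeq on the rat build GRCr8, at chr1:90324062-90324361 on the plus strand for Tgfb1 and at chr13:100792636-100792935 on the minus strand for Tgfb2. Capitals mark AGAC, the core of the SMAD-binding box, or its reverse complement GTCT.
Tgfb1: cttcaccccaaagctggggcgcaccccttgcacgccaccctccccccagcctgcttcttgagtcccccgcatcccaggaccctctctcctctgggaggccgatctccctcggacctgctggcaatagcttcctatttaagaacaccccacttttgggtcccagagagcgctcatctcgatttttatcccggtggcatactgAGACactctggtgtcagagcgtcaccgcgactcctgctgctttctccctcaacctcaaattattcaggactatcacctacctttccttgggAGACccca
Tgfb2: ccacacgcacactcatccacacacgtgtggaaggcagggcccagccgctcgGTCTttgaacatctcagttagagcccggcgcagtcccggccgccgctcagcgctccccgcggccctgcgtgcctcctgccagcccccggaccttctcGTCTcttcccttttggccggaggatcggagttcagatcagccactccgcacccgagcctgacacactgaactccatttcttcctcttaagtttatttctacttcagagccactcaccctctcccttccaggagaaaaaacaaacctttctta
The Tgfb1 window held the box starting at positions -49 and 42 relative to the start site, and the Tgfb2 window at -199 and -102. All 10 genes matched the RefSeq table, with 11 windows because Smad2 has 2. The box was in 8 of the 11 windows, where 88.8% of 33469 rat promoter windows hold it on either strand. The palindromic element GTCTAGAC, which contains the box, was in 0 of 11 (0.197% of all windows), and the SP1 box GGCGGG, searched on both strands, was in 5 of 11 (32.0% of all windows). The NF-kB consensus, a motif chosen after the values were seen, was in the Tgfb1 and Tgfbr1 windows only, 2 of 11 against 7.51% of all windows. A match describes the letters and is no evidence of binding, and no match says only that these letters are not in this window.

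Tgfb2 was the member that ranged most widely. Its level was 5.75 and 5.82 in untreated wild type and 10.68 and 10.17 after TNFα. Under the Tnfrsf1α-/- label it was 2.71 and 2.50 untreated and 11.51 and 11.30 treated. Under the Tnfrsf1β-/- label it was 3.04 and 2.93 untreated, and the treated replicates were 5.49 and listed at 0. Both treated wild-type libraries and both treated libraries labelled Tnfrsf1α-/- therefore stood above the other 8 without overlap, while the treated libraries labelled Tnfrsf1β-/- disagreed with each other. In wild type Tgfb2 rose with TNFα by 4.64 (SE 1.35, limma adjusted p = 0.0213), a 24.9-fold difference on the log2(FPKM + 1) scale. Under the Tnfrsf1α-/- label it rose by 8.80 (SE 1.35, limma adjusted p = 0.00255). The SE is shared by all groups and narrows without the discordant pair: with replicate 1 or replicate 2 of treated libraries labelled Tnfrsf1β-/- left out, the limma adjusted p of the wild-type rise was 1.6e-06 and 1.53e-06. The wild-type call was lost with a pseudocount of 0.1 (0.105), with quantile normalization (0.0739) and without any 1 of the 4 wild-type libraries (0.0723 to 0.117).

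The response of Tgfb2 under the Tnfrsf1β-/- label rests on which replicate is kept. Against untreated libraries of that label, the difference was 2.51 with replicate 1 alone and -2.98 with replicate 2 alone, which was listed at 0. The difference of this response from that of wild type was -4.88 (limma adjusted p = 0.0498), and it was -2.13 without treated replicate 2 (0.00183). It missed the threshold in 8 of the 12 fits that left out 1 library, including all 4 without a wild-type library (0.102 to 0.139). With TNFα present, Tgfb2 was lower under the Tnfrsf1β-/- label than in wild type by 7.68 (limma adjusted p = 0.00173), and by 4.93 without the replicate listed at 0 (4.5e-06). Untreated, its difference from wild type was -3.18 under the Tnfrsf1α-/- label and -2.80 under the Tnfrsf1β-/- label, neither of which passed the threshold; without replicate 1 of treated libraries labelled Tnfrsf1β-/- both did (limma adjusted p = 6.48e-05 and 0.000133).

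Tgfb1, the most widely expressed isoform, was steady in 10 libraries and low in 2. It stood at 5.53 and 5.35 in untreated wild type and at 3.02 and 3.08 after TNFα. The other 8 libraries lay between 4.98 and 5.54, so the treated wild-type pair was below every other library. The fall in wild type was 2.39 on the log2 scale (SE 0.18, limma adjusted p = 8.81e-06), and it was past the threshold under every alternative run. No difference with TNFα passed under the knockout labels, where values were 4.98 and 5.15 untreated against 5.54 and 5.29 treated for Tnfrsf1α-/-, and 5.20 and 5.20 against 5.11 and 5.32 for Tnfrsf1β-/-. The response differed from wild type by 2.74 (limma adjusted p = 5.97e-05) and 2.40 (9.14e-05), respectively; both comparisons share the same 4 wild-type libraries. Treated wild type is also the group with high hepatocyte markers and a low median of the mesenchymal markers, although Tagln and Dcn of that list were highest there.

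Tgfb3 was the lowest ligand in 7 of 12 libraries. It was 2.65 and 2.38 in untreated wild type, 2.56 and 2.43 after TNFα, 3.27 and 3.30 in untreated libraries labelled Tnfrsf1α-/- and 3.5 and 3.61 in untreated libraries labelled Tnfrsf1β-/-. The treated replicates labelled Tnfrsf1α-/- were far apart at 3.92 and 1.80, and the treated replicates labelled Tnfrsf1β-/- were 2.33 and 1.61. Under the Tnfrsf1β-/- label it fell by 1.58 with TNFα (limma adjusted p = 0.0406), a call lost in 10 of 12 fits with a library left out and under median-ratio scaling (0.166).

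**Figure D1:**
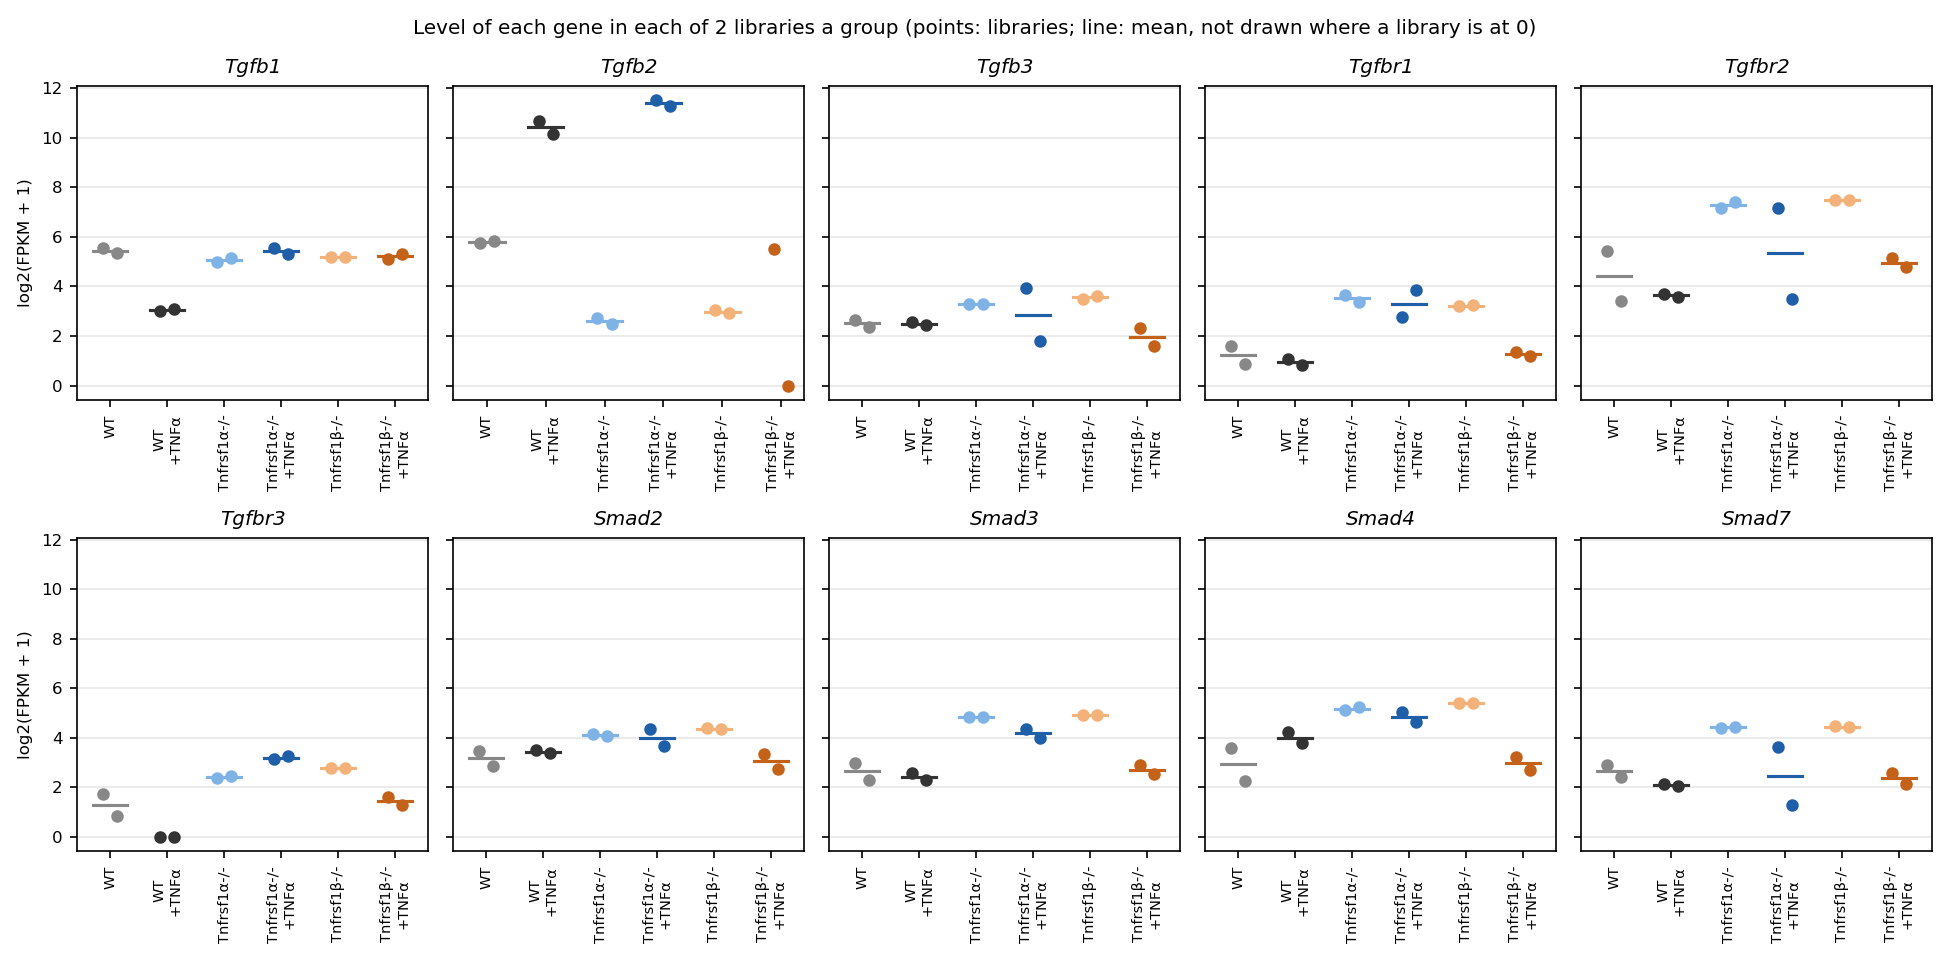
Level of each of the 10 genes in every library, as log2(FPKM + 1) on the vertical axis, with the 6 groups along the horizontal axis, 1 point for each library and a line at the group mean where no library is at 0. Tgfb1 is low only in treated wild type, at 3.02 and 3.08, and Tgfb2 exceeds 10 only in treated wild type and treated libraries labelled Tnfrsf1α-/-.

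The make-up of the ligand pool, taken as shares of the summed FPKM of the 3 genes, turned over accordingly. In untreated wild type Tgfb1 held 43.8% and 39.9% and Tgfb2 held 51.1% and 55.9% of a pool of 103.5 and 99.4 FPKM. In treated wild type Tgfb2 held 99.3% and 99.0% of 1655 and 1162 FPKM, and in treated libraries labelled Tnfrsf1α-/- it held 98.0% and 98.4% of 2983 and 2554 FPKM. The untreated knockout libraries were instead led by Tgfb1, with 66.6% to 71.9% of pools of 44.9 to 53.5 FPKM. Of the treated libraries labelled Tnfrsf1β-/-, replicate 1 resembled untreated wild type, with 41.0% Tgfb1 and 54.0% Tgfb2, and replicate 2 held 95.0% Tgfb1.

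**Figure D2:**
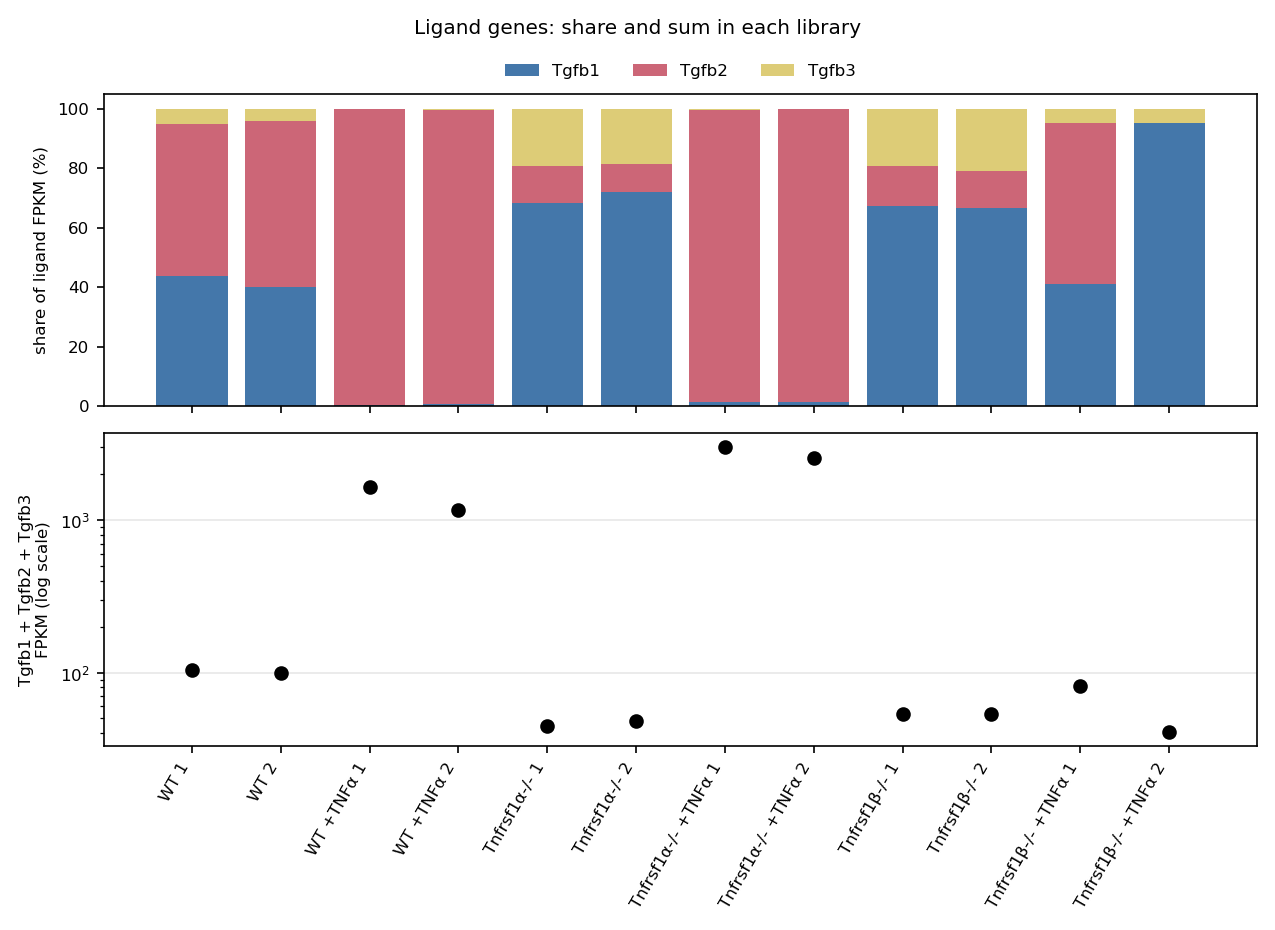
Share of Tgfb1, Tgfb2 and Tgfb3 in the summed FPKM of the 3 ligands, in percent, 1 bar for each of the 12 libraries. Tgfb2 fills 98.0% to 99.3% of the bar in the treated wild-type and treated libraries labelled Tnfrsf1α-/-, and 0% in replicate 2 of treated libraries labelled Tnfrsf1β-/-.

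All 3 receptors were higher in the untreated knockout libraries than in untreated wild type, and Tgfbr1 and Tgfbr3 fell with TNFα under the Tnfrsf1β-/- label. Tgfbr1, the type I kinase that phosphorylates Smad2 and Smad3, was 1.60 and 0.87 in untreated and 1.06 and 0.83 in treated wild type. It was 3.65 and 3.38 in untreated libraries labelled Tnfrsf1α-/- and 3.22 and 3.24 in untreated libraries labelled Tnfrsf1β-/-. With TNFα it stood at 2.75 and 3.87 under the first label and at 1.35 and 1.19 under the second. The 4 untreated knockout and 2 treated libraries labelled Tnfrsf1α-/- thus lay above the other 6 without overlap, and the treated pair labelled Tnfrsf1β-/- lay within the wild-type range. The untreated difference from wild type was 2.28 for Tnfrsf1α-/- (SE 0.38, limma adjusted p = 0.00151) and 1.99 for Tnfrsf1β-/- (0.00275), and the fall under the Tnfrsf1β-/- label was 1.96 (0.0025). These 3 calls held in every alternative run.

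Tgfbr2, the type II kinase that binds the ligand, was the most abundant receptor by FPKM in 11 of 12 libraries. It was 5.43 and 3.41 in untreated wild type, 3.71 and 3.59 in treated wild type, 7.16 and 7.39 in untreated libraries labelled Tnfrsf1α-/- and 7.49 and 7.49 in untreated libraries labelled Tnfrsf1β-/-. The treated replicates labelled Tnfrsf1α-/- were 7.17 and 3.51 and the treated replicates labelled Tnfrsf1β-/- 5.15 and 4.76. The 4 untreated knockout libraries were above both untreated wild-type libraries, which were themselves 2.02 apart. The difference from wild type was 2.86 for Tnfrsf1α-/- (limma adjusted p = 0.0433) and 3.07 for Tnfrsf1β-/- (0.0328); both calls were lost in 9 of 12 fits with a library left out, among them that without wild-type replicate 2 (0.268 and 0.222), and under median-ratio scaling (0.078 and 0.0573). The difference of -2.53 with TNFα under the Tnfrsf1β-/- label did not pass (limma adjusted p = 0.0606) but did without either treated library labelled Tnfrsf1α-/- (0.0026 and 0.0025). In that discordant pair Acta2, a mesenchymal marker, stood at 8.55 and 0.26 and the epithelial keratin Krt8 at 6.26 and 0.62; their part in the receptor values was not tested.

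Tgfbr3, the co-receptor, was 1.72 and 0.83 in untreated wild type and was listed at 0 in both treated wild-type libraries. It was 2.37 and 2.47 in untreated and 3.13 and 3.27 in treated libraries labelled Tnfrsf1α-/-, and 2.78 and 2.80 in untreated against 1.62 and 1.28 in treated libraries labelled Tnfrsf1β-/-. Treated wild type was thus the only group without a value above 0, and the treated pair labelled Tnfrsf1α-/- was the highest. The lower level in treated wild type passed the threshold (limma adjusted p = 0.00606), and no fold is given against a group at 0. The response differed between the Tnfrsf1α-/- label and wild type (limma adjusted p = 0.005), but because of the values at 0 the size depends on the pseudocount, at 2.05 with 1 and 4.75 with 0.1. Under the Tnfrsf1β-/- label Tgfbr3 fell by 1.34 with TNFα (limma adjusted p = 0.00366), a call lost with quantile normalization (0.216). Untreated, it was higher than wild type by 1.15 and 1.51 under the Tnfrsf1α-/- and Tnfrsf1β-/- labels (limma adjusted p = 0.00859 and 0.00252), and the first was lost with quantile normalization (0.331).

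Smad2, Smad3 and Smad4 divided the libraries as Tgfbr1 did, with the same 6 libraries above the other 6 without overlap, and Smad7 did so except for 1 treated library labelled Tnfrsf1α-/-. Smad3, which binds DNA directly, was 3.01 and 2.30 in untreated wild type, 2.59 and 2.29 in treated wild type, 4.86 and 4.84 in untreated libraries labelled Tnfrsf1α-/- and 4.93 and 4.94 in untreated libraries labelled Tnfrsf1β-/-. With TNFα it was 4.37 and 4.0 under the first knockout label and 2.91 and 2.52 under the second. All 4 untreated knockout libraries were above every treated or untreated wild-type library, and the treated libraries labelled Tnfrsf1β-/- lay within the wild-type range. Smad3 was higher than wild type by 2.19 in untreated libraries labelled Tnfrsf1α-/- (SE 0.28, limma adjusted p = 0.000567) and by 2.28 in untreated libraries labelled Tnfrsf1β-/- (0.000472). It fell by 2.22 with TNFα under the Tnfrsf1β-/- label (SE 0.28, limma adjusted p = 0.000451). In that comparison the median of all tested genes was -0.66, and Smad3 was 1.56 below that median.

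Smad4, the common partner of the receptor-activated SMADs, was 3.60 and 2.28 in untreated wild type and 4.22 and 3.81 in treated wild type. It was 5.12 and 5.24 in untreated libraries labelled Tnfrsf1α-/- and 5.42 and 5.41 in untreated libraries labelled Tnfrsf1β-/-, and 5.05 and 4.63 against 3.24 and 2.69 with TNFα. It was the member with the lowest adjusted p among those whose response under the Tnfrsf1β-/- label was more negative than in wild type: the fall was 2.45 (SE 0.41, limma adjusted p = 0.00135), the wild-type difference was 1.08 (0.0588), and the 2 responses differed by -3.52 (0.000968). The wild-type difference passed without wild-type replicate 1, at 1.74 (limma adjusted p = 0.00367). Untreated, Smad4 was higher than wild type by 2.24 and 2.47 under the 2 knockout labels (limma adjusted p = 0.0024 and 0.00155).

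Smad2, which needs Smad4 to bind DNA, moved less. It was 3.47 and 2.88 in untreated and 3.52 and 3.38 in treated wild type, 4.17 and 4.10 in untreated libraries labelled Tnfrsf1α-/- and 4.40 and 4.35 in untreated libraries labelled Tnfrsf1β-/-. With TNFα the 2 knockout labels gave 4.36 and 3.67, and 3.37 and 2.75. The untreated knockout libraries were above all wild-type libraries. The untreated differences were 0.95 (limma adjusted p = 0.0313) and 1.20 (0.0121), and the first was lost under median-ratio scaling (0.159) and in 7 of 12 fits with a library left out (up to 0.181). The second was lost in 3 of 12, those without wild-type replicate 2 or either untreated library of its own label (0.0581 to 0.083). The fall under the Tnfrsf1β-/- label was 1.31 (limma adjusted p = 0.00695), also lost under median-ratio scaling (0.0615) and in 1 of 12 fits with a library left out (0.0561).

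Smad7, the inhibitory member, was 2.89 and 2.44 in untreated and 2.12 and 2.07 in treated wild type. It was 4.39 and 4.46 in untreated libraries labelled Tnfrsf1α-/- and 4.48 and 4.42 in untreated libraries labelled Tnfrsf1β-/-, and fell to 2.59 and 2.16 with TNFα under the second label. The treated replicates labelled Tnfrsf1α-/- were 3.62 and 1.27, on either side of the wild-type values. The fall under the Tnfrsf1β-/- label was 2.08 (limma adjusted p = 0.0176), and the untreated differences from wild type were 1.76 (0.0385) and 1.79 (0.0361). All 3 were lost under median-ratio scaling (0.0664, 0.096 and 0.086). With a library left out, the call of the fall was lost in 3 of 12 fits and each untreated call in 10 of 12. Under the Tnfrsf1α-/- label the difference of -1.98 with TNFα did not pass (limma adjusted p = 0.0578), and without treated replicate 1 it was -3.15 (2.43e-05). Compared with treated wild type, the treated libraries labelled Tnfrsf1α-/- were higher by 1.52 without replicate 2 and lower by 0.82 without replicate 1, so the direction rests on 1 library.

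**Figure D3:**
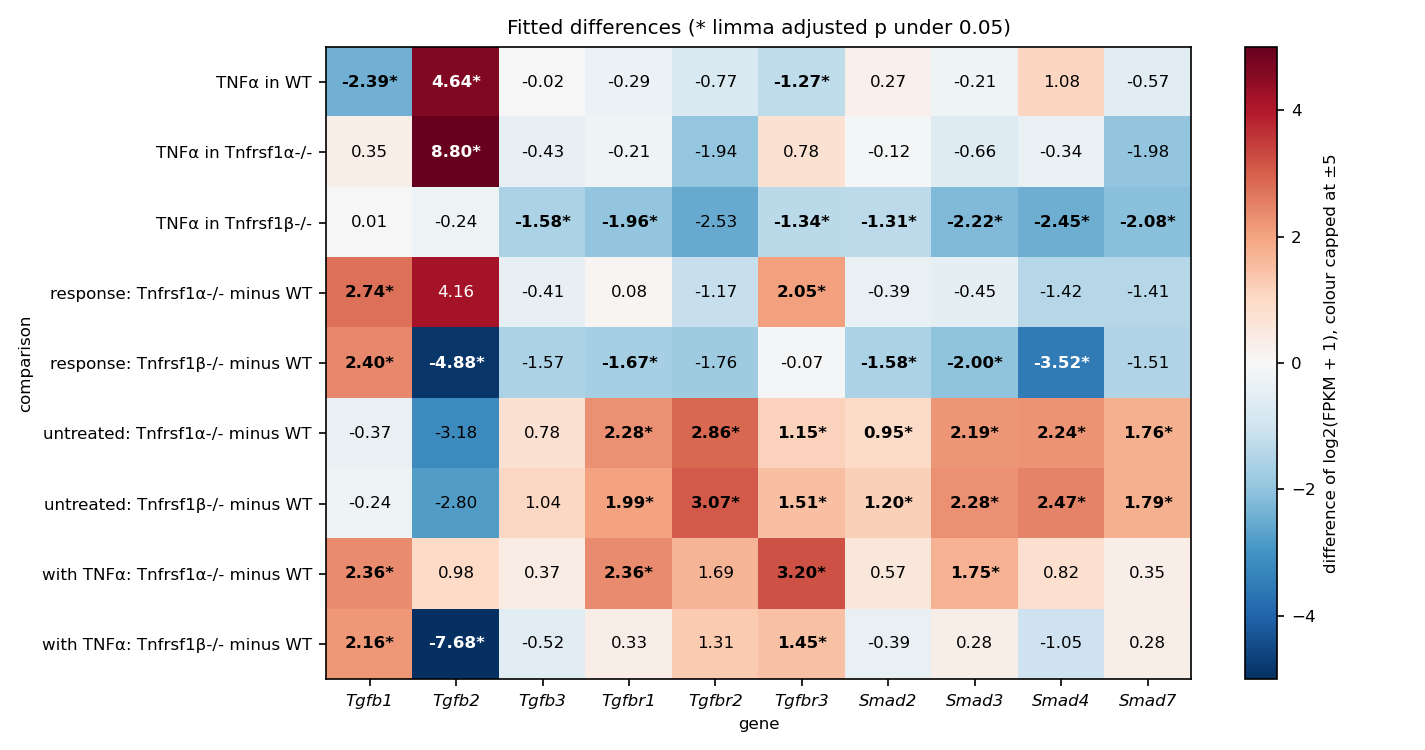
Fitted difference of log2(FPKM + 1) for each of the 10 genes (columns) in each of the 9 comparisons (rows), printed in the cell and shown as colour from blue (lower) to red (higher), with a star where the limma adjusted p was under 0.05; Tgfbr3 was at 0 in treated wild type, so the size of its differences from that group depends on the pseudocount. The difference between treated and untreated wild type was -2.39 for Tgfb1 and 4.64 for Tgfb2. With TNFα under the Tnfrsf1β-/- label 7 genes, including all 4 SMADs, are blue and starred.

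Differences between a pair of members within a library move little with the scaling of that library where both levels are high, so they were read per library without a test. For low genes such as Tgfbr1, at 0.78 to 2.04 FPKM in wild type, the pseudocount makes them depend on it more. Smad3 minus Smad2 was -0.46 and -0.58 in untreated and -0.93 and -1.09 in treated wild type, against 0.69 and 0.74 in untreated libraries labelled Tnfrsf1α-/- and 0.53 and 0.59 in untreated libraries labelled Tnfrsf1β-/-. With TNFα it was 0.01 and 0.33 under the first knockout label and -0.45 and -0.23 under the second. Smad3 was thus the higher of the pair in the 6 libraries formed by all those labelled Tnfrsf1α-/- and the untreated ones labelled Tnfrsf1β-/-, and Smad2 in the other 6. By contrast, Smad7 minus Smad4 was -2.10 and -1.74 in treated wild type against -0.71 and 0.16 untreated, and -0.54 to -0.98 in the libraries labelled Tnfrsf1β-/- and the untreated libraries labelled Tnfrsf1α-/-. It was -1.43 and -3.35 in treated libraries labelled Tnfrsf1α-/-. Tgfbr2 minus Tgfbr1 lay between 2.54 and 4.42 in 11 libraries and was -0.36 in replicate 2 of treated libraries labelled Tnfrsf1α-/-. Sums of FPKM, unlike these differences, move with the scaling of the library. Summed over the 3 receptors, wild-type libraries had 11.2 to 46.4 FPKM, and untreated knockout libraries had 158 to 193 FPKM. The treated libraries had 156 and 32.7 FPKM under the Tnfrsf1α-/- label and 38.2 and 28.9 under the Tnfrsf1β-/- label. Smad2, Smad3 and Smad4 together gave 14.2 to 33.1 FPKM in wild type and 78.9 to 91.4 FPKM in untreated knockout libraries. In the treated libraries they gave 71.4 and 50.5 FPKM under the Tnfrsf1α-/- label and 24.3 and 16.0 under the Tnfrsf1β-/- label.

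**Figure D4:**
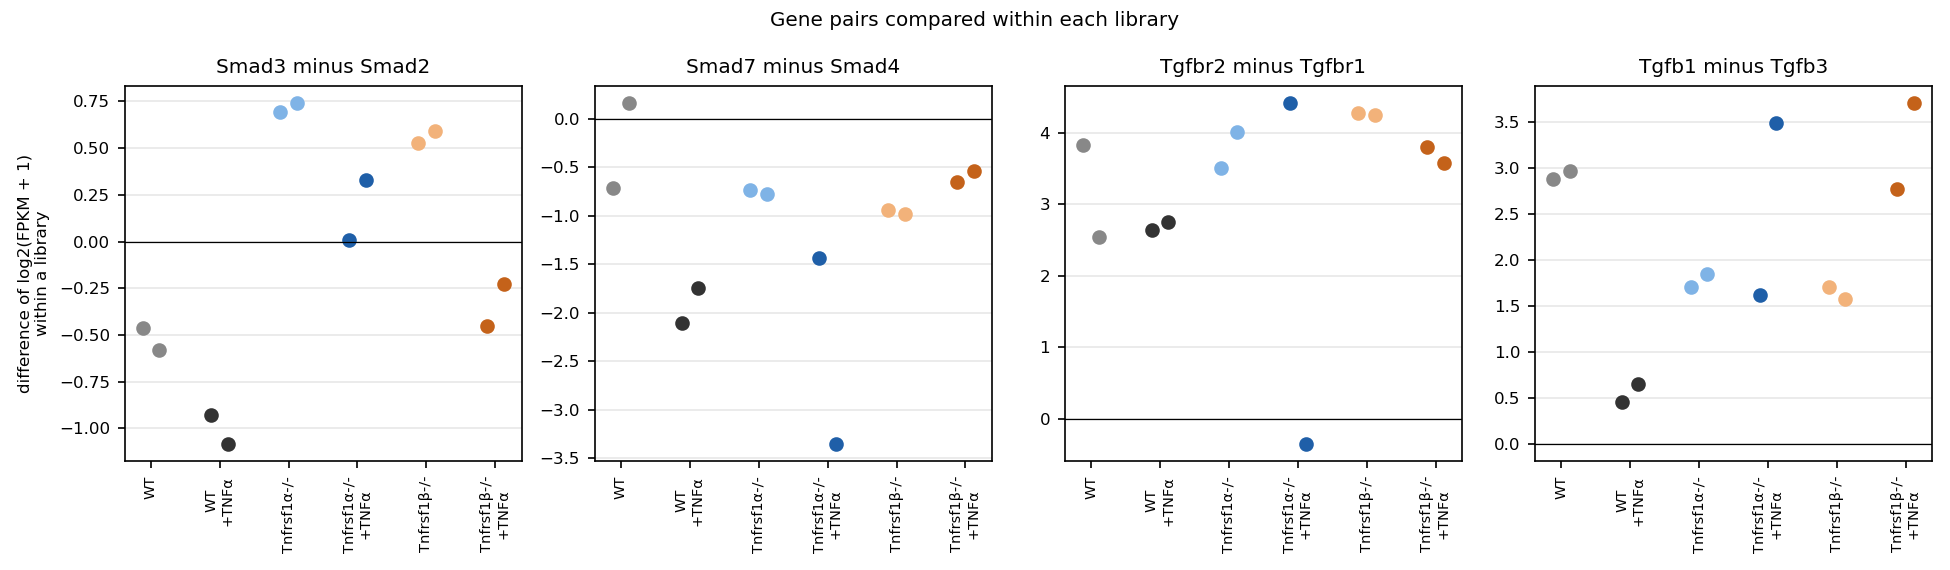
Differences of log2(FPKM + 1) between pairs of members within each of the 12 libraries (vertical axis), 1 point for each library, by group. Smad3 minus Smad2 is above 0 in the untreated knockout libraries (0.53 to 0.74) and below 0 in wild type (-1.09 to -0.46).

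Over the 10 members, libraries could also be compared by the root mean square difference of their levels. The 2 untreated libraries labelled Tnfrsf1β-/- were 0.056 apart, the untreated pair labelled Tnfrsf1α-/- 0.15 and the treated wild-type pair 0.25, while the treated pair labelled Tnfrsf1α-/- was 1.60 and the treated pair labelled Tnfrsf1β-/- 1.79 apart. Replicate 1 of treated libraries labelled Tnfrsf1β-/- was 0.27 from untreated wild-type replicate 1, closer than the untreated wild-type pair to each other at 0.91. Over all tested genes with 1 line, treated libraries labelled Tnfrsf1β-/- had Spearman correlations of 0.954 to 0.984 with untreated wild type. With untreated libraries of their own label these were 0.738 to 0.794. The part of this likeness in the differences found with TNFα under that label was not tested. Without TNFα, a library labelled Tnfrsf1α-/- and one labelled Tnfrsf1β-/- were 0.23 to 0.29 apart.

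Counts of members per comparison are read against the share of all 11860 tested lines called at a limma adjusted p under 0.05. All 10 members passed the filter of a mean FPKM of at least 1. With TNFα in wild type 1 member rose and 2 fell, where 47.2% of all lines were called, 31.9% as higher and 15.3% as lower. The members' median was -0.25 and that of all lines 0.32. When both treated libraries labelled Tnfrsf1α-/- were left out, 5 passed, Smad4 and Smad7 being added, and 64.5% of all lines were called. Under the Tnfrsf1α-/- label 1 member rose and 0 fell (17.3% of all lines called, 9.81% as higher and 7.5% as lower). With quantile normalization 5 members passed, where 31.6% of all lines were called, and the count also rose in some fits with 1 library left out. Under the Tnfrsf1β-/- label 0 rose and 7 fell (60.5% of all lines called, 17.6% as higher and 42.9% as lower), with a median of -1.77 over members and -0.66 over all lines. Under median-ratio scaling, where 54.4% of all lines were called, 4 fell and 1, Tgfb1, rose. The 7 were Tgfb3, Tgfbr1, Tgfbr3, Smad2, Smad3, Smad4 and Smad7.

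The response differed from wild type in 2 members for the Tnfrsf1α-/- label (34.8% of all lines called, 12.8% as higher and 22% as lower) and in 6 for the Tnfrsf1β-/- label (64.5% called, 17.3% as higher and 47.3% as lower), of which Tgfb1 was the 1 with a higher response. The 6 dropped to 3 under median-ratio scaling, where 57.1% of all lines were called. Both counts also moved in fits with 1 library left out. Untreated, 7 members were higher and 0 lower under each knockout label, where 53.7% and 54.4% of all lines were called, 36.7% and 36.9% as higher and 17% and 17.5% as lower. These were the same 7 under both labels, namely the 3 receptors and the 4 SMADs, and both comparisons share the wild-type libraries. The members' medians were 1.45 and 1.65, where those of all lines were 0.48 and 0.47. Under median-ratio scaling 4 members were higher for Tnfrsf1α-/- and 5 for Tnfrsf1β-/-, and 1, Tgfb1, was lower in each, where 51.6% of all lines were called in either comparison. The summed progenitor and cholangiocyte markers were low in the same untreated knockout libraries, and their part in these differences was not tested. The 7 fell to 4 for the Tnfrsf1α-/- label under quantile normalization, where 51.2% of all lines were called. The count for that label was lowest without its own untreated replicate 2. The next lowest count came without wild-type replicate 2, either treated wild-type library or any 1 of the other untreated knockout libraries. For the Tnfrsf1β-/- label it was lowest without wild-type replicate 2 or either of its own untreated libraries. With TNFα, 4 members were higher under the Tnfrsf1α-/- label than in wild type (45.2% of all lines called, 22.7% as higher and 22.4% as lower), a count that rose in some fits with 1 library left out. For Tnfrsf1β-/- 2 were higher and 1 lower (51% of all lines called, 14.7% as higher and 36.3% as lower). The 4 were Tgfb1, higher by 2.36, Tgfbr1 by 2.36 and Smad3 by 1.75, and Tgfbr3, which was at 0 in treated wild type. Under the Tnfrsf1β-/- label Tgfb1 was higher by 2.16, Tgfbr3 was higher against the same values at 0, and Tgfb2 was lower.

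The split of all calls into higher and lower depended on the scaling, while no called difference of a member changed sign under it. With TNFα in wild type 67.6% of called lines were higher as deposited, 49.3% under median-ratio scaling and 43.2% under quantile normalization; under the Tnfrsf1β-/- label the shares were 29.1%, 50.9% and 44.8%. For untreated libraries labelled Tnfrsf1α-/- against wild type they were 68.3%, 51% and 54.4%, and for Tnfrsf1β-/- 67.8%, 51.4% and 54.3%. For the response of Tnfrsf1α-/- against wild type they were 36.9%, 52.5% and 50.3%, for that of Tnfrsf1β-/- 26.8%, 50.2% and 49.1%, and for treated libraries labelled Tnfrsf1β-/- against treated wild type 28.8%, 54.6% and 55.9%. With TNFα under the Tnfrsf1α-/- label the share was 56.7% as deposited and 34.3% under quantile normalization. Tgfbr1, Smad3 and Smad4 passed in every alternative in the untreated comparisons and in the fall under the Tnfrsf1β-/- label.

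Other genes of the pathway were counted by role, against the same shares of all lines. Of 14 tested genes listed for storage or activation of the ligand, 6 rose and 2 fell with TNFα in wild type (median 0.44). In that comparison 31.9% of all lines rose and 15.3% fell (median 0.32). Itgb5, a subunit of an integrin that releases latent ligand, went from 6.0 and 5.72 to 11.21 and 11.36. Under the Tnfrsf1α-/- label it went from 4.14 and 4.25 to 12.16 and 12.13 (limma adjusted p = 1.57e-06 and 2.27e-07). Ltbp1, a latent ligand binding protein, went from 4.39 and 3.45 to 0.00 and 0.01 in wild type. Ltbp2, of the same gene family, went from 3.40 and 4.14 to 9.90 and 9.59, and whether it holds the ligand was not tested. Thbs1, which activates latent ligand, rose by 5.40 under the Tnfrsf1α-/- label, where 4 of the 14 rose and 0 fell, against 9.81% and 7.5% of all lines. Itgb5 also had the pattern nearest to that of Tgfb2 among all tested genes (root mean square difference of centred levels 1.07 over 12 libraries).

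The genes that TGF-beta induces in many cell types did not move in 1 direction: of 22 tested, 6 rose and 11 fell with TNFα in wild type (median -1.02). Of all lines 31.9% rose and 15.3% fell there. Junb, a subunit of the transcription factor AP-1, rose by 5.12, from 5.80 and 5.63 to 10.60 and 11.08 (limma adjusted p = 2.01e-07). It rose by 3.25 under the Tnfrsf1α-/- label (limma adjusted p = 1.06e-05), and fell by 2.35 under the Tnfrsf1β-/- label (0.000147). Pmepa1, a feedback inhibitor, was 5.68 and 6.24 in untreated wild type and listed at 0 in both treated libraries. The list shares Col1a1, Col3a1, Acta2 and Tagln with the mesenchymal markers, and these went different ways: Acta2 was 8.90 and 8.59 in untreated and 0.02 and 0.13 in treated wild type, whereas Tagln rose by 3.28 (limma adjusted p = 1.07e-05).

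Most tested regulators of SMADs and receptors were higher or lower in the comparisons in which the SMADs were. Of 19 tested, 15 were higher and 1 lower than wild type in untreated libraries labelled Tnfrsf1α-/- (median 1.79), and the same counts held for Tnfrsf1β-/- (median 1.60). Of all lines 36.7% and 36.9% were higher in these comparisons, and 17% and 17.5% were lower. With TNFα under the Tnfrsf1β-/- label 1 rose and 15 fell (median -1.82), where 17.6% of all lines rose, 42.9% fell and the median of all lines was -0.66. Smurf2, a ubiquitin ligase that targets the receptors with Smad7, fell by 2.39 (limma adjusted p = 0.000752), and Zfyve9 (SARA), which brings Smad2 to the receptor, fell by 2.21 (0.000916). Fkbp1a, which holds the type I receptor inactive, rose by 1.36 (limma adjusted p = 0.000576). Of the other receptors of the family, 5 of 8 were higher and 0 lower in untreated libraries of each knockout label, and 5 fell and 0 rose with TNFα under the Tnfrsf1β-/- label; Bmpr1a fell by 2.47 and Bmpr2 by 2.55. Smad1 and Smad5, the mediators of BMP signals, fell there by 1.74 and 1.88. Smad6, an inhibitory SMAD like Smad7, fell with TNFα in wild type by 1.97 (limma adjusted p = 0.000663), from 4.67 and 4.02 to 2.38 and 2.37. Of 12 tested activin and BMP ligands and antagonists, 4 rose and 3 fell with TNFα in wild type, where 31.9% of all lines rose and 15.3% fell. Inhba, the activin A subunit, rose by 2.03 in wild type and by 6.65 under the Tnfrsf1α-/- label (limma adjusted p = 0.00152 and 1.01e-06).

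**Figure D5:**
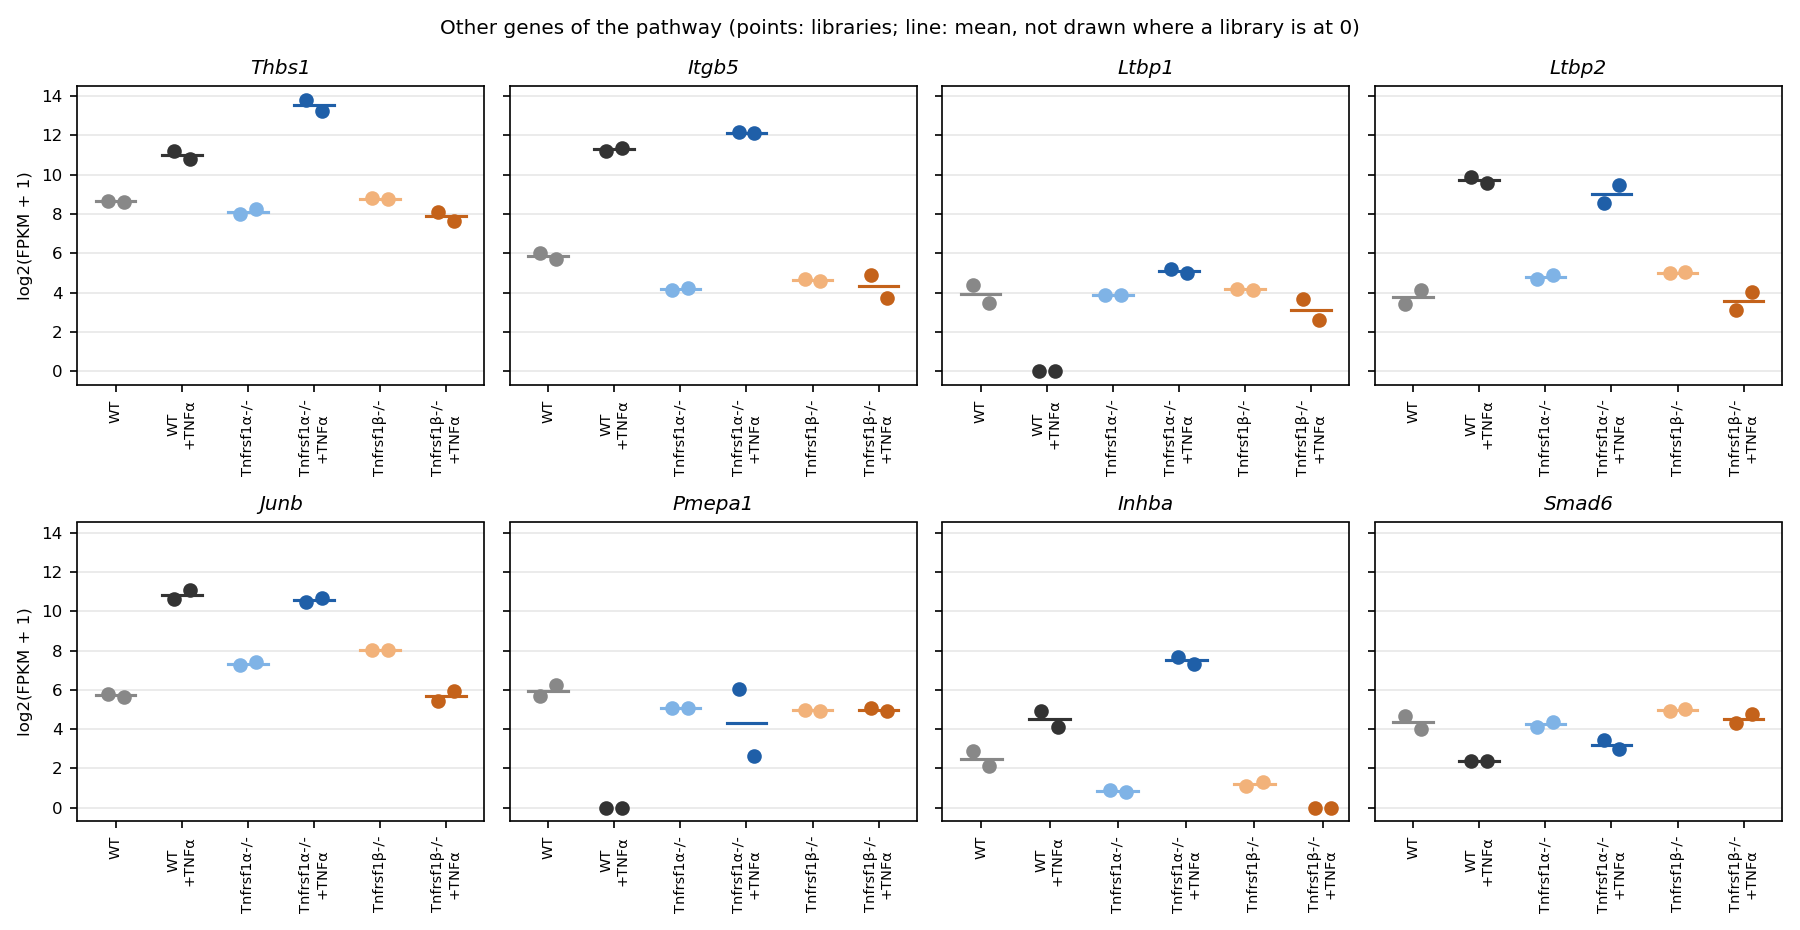
Levels of 8 other genes of the pathway as log2(FPKM + 1) on the vertical axis, by group on the horizontal axis, with 1 point for each library and a line at the mean where no library is at 0. Itgb5, Ltbp2, Thbs1 and Junb are highest in treated wild-type and treated libraries labelled Tnfrsf1α-/-, whereas Ltbp1 and Pmepa1 are at 0 or near it in treated wild type.

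The tested genes with the pattern nearest to each member were those with the smallest root mean square difference of centred levels over the 12 libraries. Smad2 was nearest to Mre11a (0.0997), Tex10 (0.108) and Ube4a (0.124), Smad3 to Nsd1 (0.125), Mycbp2 (0.131) and Sbf2 (0.142), and Smad4 to Dctn4 (0.124), Phf20 (0.139) and Mon2 (0.148). Smad7 was nearest to Eogt (0.137) and Tgfbr1 to Akap11 (0.211) and Jun (0.217). The nearest to Tgfb1 were Sh3bp2 (0.191) and Ckap4 (0.21), and to Tgfbr3 Nrp2 (0.206). These values describe likeness of pattern over the libraries and carry no test.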

How the data were processed

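Total RNA of rat HPCs was sequenced from Illumina TruSeq libraries, per the labels' protocols. No source used here gives the aligner, quantifier, build or FPKM scaling. What the authors deposited is 1 table of log2(FPKM + 1) values with 22730 lines, of which 346 hold no symbol and 1835 share a symbol; 0 sample columns were left unused. The log and its base were inferred from the values. Among low values the step expected between 1 and 2 reads was found with base 2 (19 genes against 8.5 in the neighbouring windows) and not with base e (8 against 12.5) or base 10 (6 against 6.25). No counts were at hand. Depth relative to 1 library was read from such steps only for the 4 untreated knockout libraries (1 to 1.24). It was not taken for the others and is unknown here, so no counting interval is given. An exact 0, held by 33.9% to 41.3% of lines per library, may be a failed estimate. Lines at 0 in a library but at a level of 5 or more in at least 10 others were 10 and 9 in treated wild type. There were 3 in replicate 2 of treated libraries labelled Tnfrsf1α-/- and 0 in every other library. Whether these are failed estimates was not tested.

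Lines with a mean FPKM of at least 1 (11860) entered a linear model on log2(FPKM + 1) in limma (version 3.58.1, R 4.3.3). The pseudocount of 1 understates how much low genes change. The fit of 6 group means to all 12 libraries, with moderation along the intensity trend and no block, gave 9 comparisons. P-values are two-sided, Benjamini-Hochberg adjusted over all tested lines, with a threshold of 0.05. The method was tested on simulated data. Alternatives were a pseudocount of 0.1, a mean FPKM of at least 5, no filter, median-ratio scaling, quantile normalization, only the groups compared, a replicate block, and each of the 12 libraries left out. The members and gene lists were chosen with earlier results of these data known. Genes named outside the members are up to 4 per list and comparison with the smallest p past the threshold, the 3 tested genes nearest in pattern to each member, and the targeted genes; cell type markers and genes shared between lists are named as examples chosen after their values were seen. Promoter sequences are from RefSeq on GRCr8, used for sequences and their positions only. A gene that the rule for named genes picks is not reported here.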

Additional observations from a re-analysis of the deposited data

Results flagged for a closer look

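The response to TNFα differed between a knockout label and wild type, by the interaction term of the limma fit, for 2 of the 10 genes under the Tnfrsf1α-/- label. Of all tested lines 34.8% were called in that comparison. Tgfb1 responded more positively there by 2.74 (limma adjusted p = 5.97e-05) and Tgfbr3 by 2.05 (0.005), or by 4.75 with a pseudocount of 0.1, since it was at 0 in treated wild type.

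Under the Tnfrsf1β-/- label 6 of the 10 genes responded differently from wild type, where 64.5% of all tested lines were called. Tgfb1 did so by 2.40 (limma adjusted p = 9.14e-05), and Tgfb2 by -4.88 (0.0498), a value that rests on replicates at 5.49 and 0. Tgfbr1 differed by -1.67 (limma adjusted p = 0.0227), Smad2 by -1.58 (0.0133), Smad3 by -2.0 (0.00257) and Smad4 by -3.52 (0.000968). The call of Tgfbr1 was lost in 6 of 12 fits that left out 1 library (up to 0.0802) and that of Smad2 in 1 (0.0508). Under median-ratio scaling Smad3 and Smad4 are the lower responses that still passed. The median of all tested lines in this comparison was -1.11.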

How the results depend on the processing

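Each called member was refitted under 19 alternatives per comparison. No call changed sign; 636 such values kept their side of the threshold and 117 no longer passed. Tgfb1 in its 5 comparisons and Smad3 and Smad4 in the untreated comparisons and under the Tnfrsf1β-/- label passed in all. Counts of members called moved by more than 1.5 times as follows. With TNFα under the Tnfrsf1α-/- label 1 became 5 with quantile normalization and 2 with the replicate block (31.6% and 22.6% of all lines called). For the response of that label against wild type 2 became 1 with a mean FPKM of at least 5, where fewer lines are tested. For the response of Tnfrsf1β-/- 6 became 3 under median-ratio scaling (57.1% of all lines called), and for untreated Tnfrsf1α-/- 7 became 4 with quantile normalization (51.2%). For treated Tnfrsf1β-/- against wild type 3 became 5 with only the groups compared (65.1%). With TNFα in wild type 3 became 5 when both treated libraries labelled Tnfrsf1α-/- were left out (64.5% of all lines called), a choice made after seeing the data. Other than for the filter, the cause was not tested. With 1 library left out, counts were 2 to 5 for TNFα in wild type, 1 to 6 under Tnfrsf1α-/- and 5 to 8 under Tnfrsf1β-/-, 2 to 5 and 3 to 8 for the differences of response, 3 to 8 and 4 to 8 untreated, and 4 to 8 and 3 to 4 treated, in the order Tnfrsf1α-/-, Tnfrsf1β-/-. A group left with 1 library is assumed to vary like the others. Over all lines, calls for TNFα under Tnfrsf1α-/- were 2052, against 570 with only the groups compared, 3750 with quantile normalization and 750 to 7001 with a library left out; treated Tnfrsf1α-/- against wild type gave 5356 and 2111 with only the groups compared. Median-ratio scaling added calls of Tgfb1 as lower in untreated knockouts (-0.94 and -0.79) and higher with TNFα under Tnfrsf1β-/- (0.80).

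The labels give no shared source for replicate numbers. Over 15 pairs of groups the correlation of replicate deviations had a median of 0.149 and ran from -0.169 to 0.244, so not every pair deviated together and the numbers were not taken to pair the libraries. With the replicate block 4 members passed for TNFα in wild type, 2 under the Tnfrsf1α-/- label and 8 under the Tnfrsf1β-/- label. Of all lines 49.7%, 22.6% and 61.7% were called there, and calls under the Tnfrsf1α-/- label went from 2052 to 2675. The 2 libraries a group, unknown depth and unequal summed FPKM limit all values, and low genes such as Tgfbr3 most.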
